A study of Mus musculus and Homo sapiens with 24 samples.

Results

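The cytosolic ribosomal proteins are the structural proteins of the ribosome's small subunit (RPS genes, with RPSA) and large subunit (RPL genes, with the stalk proteins RPLP0, RPLP1 and RPLP2). They were followed here through the differentiation of skeletal myoblast lines from mouse and human. Members were the genes whose symbol has the form of a ribosomal protein gene and whose mean level over a line's 12 libraries was at least 10 CPM (the count scaled to the library's total, with TMM factors), with the RPS6K kinases and pseudogenes left out. Of the mouse genes, 77 of 84 matching symbols were members, of 56748 rows in all, 31 of the small and 46 of the large subunit. Of the human genes, 78 of 85 were members, of 58735 rows, 30 of the small and 48 of the large subunit. All members passed the filter on low counts, and 73 were members in both lines under the same symbol. The series holds 24 poly-A RNA libraries in 6 groups of 4. C2C12 cells, a mouse myoblast line, were sampled on days 0, 1 and 6, and LHCN-M2 cells, an immortalised human myoblast line, on days 0, 1 and 12. All 6 groups carry the genotype label control, the labels name no other agent or allele, and each group is a single established line and not tissue. Whether the 4 libraries of a group are separate cultures is not stated in the labels, and the p-values speak only of the spread among them, which may be technical.

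A ribosome needs its proteins in near equal numbers, and the genes are among the most highly transcribed of a dividing cell. Their mRNAs typically begin with a C followed by a run of pyrimidines, the terminal oligopyrimidine (TOP) motif. Through it the kinase complex mTORC1 and the RNA-binding protein LARP1 set how well these mRNAs are translated and how stable they are. Muscle differentiation is the exit of myoblasts from the cell cycle and their fusion into myotubes. Some members have a paralog (RPL3L for RPL3, RPL22L1 for RPL22) that can take the same place in the ribosome, and RPL3L is known from mature heart and skeletal muscle.

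The starts of 58 mouse members could be read from RefSeq (GRCm38.p6), with 69 annotated starts in all. The other 19 members had no entry in the table used. A run was counted when a C followed by at least 4 bases of C or T lay on the transcribed strand and reached within 5 bases of an annotated start. Of the members' starts 47.8% had such a run, against 24.8% of the 32851 starts in the table. By gene this was 53.4% of members (31 genes) against 28.1% of 27025 genes. The same motif on the other strand, a G or A run that ends in G, was found in 15.9% of the members' starts and 27.4% of all starts. A match describes these letters only and is no measure of translation. The windows below are 30 bases long, begin 15 bases before the most upstream annotated start and read 5′ to 3′ on the gene's strand. Capitals mark the pyrimidine run where one reached within 5 bases of the start. In Rpl4 and Rps27l the marked run ends before the start, and in Rpl13a and Rpl22l1 it begins after the start. Rps6, the target of the S6 kinases, and Rpl35 and Rpl38 are shown because their runs were clear examples, chosen after the windows were seen. Rpl4, Rpl13a and Rplp2 are shown because their falls were among the largest, with an Rpl4 run that begins before the window, and Rpl22l1 and Rps27l because they are paralogs described below.
Rps6: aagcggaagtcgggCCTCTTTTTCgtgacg
Rpl35: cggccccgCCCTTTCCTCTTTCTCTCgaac
Rpl38: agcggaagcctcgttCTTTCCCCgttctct
Rpl4: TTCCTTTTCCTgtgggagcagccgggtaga
Rpl13a: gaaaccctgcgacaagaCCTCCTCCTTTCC
Rplp2: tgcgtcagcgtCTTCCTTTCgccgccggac
Rpl22l1: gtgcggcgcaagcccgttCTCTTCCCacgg
Rps27l: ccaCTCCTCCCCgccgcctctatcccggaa
They lie at chr4:86857353-86857382 (minus strand), chr2:39005117-39005146 (minus), chr11:114668565-114668594 (plus), chr9:64173372-64173401 (plus), chr7:45128731-45128760 (minus), chr7:141447636-141447665 (plus), chr3:28805493-28805522 (plus) and chr9:66946071-66946100 (plus). Rps27l, shown above with a run, was higher on day 6 against day 0. The windows are picked examples, and members with and without a run are counted below. Other members had no such run near the annotated start. Among them were Rpl7l1 and Rpl41, which were higher on day 6, and Rpl22 and Rplp0, which were lower on day 6 against day 0.
Rpl7l1: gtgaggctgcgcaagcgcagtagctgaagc
Rpl41: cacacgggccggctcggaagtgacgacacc
Rpl22: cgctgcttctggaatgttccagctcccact
Rplp0: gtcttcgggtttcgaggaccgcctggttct
These lie at chr17:46782642-46782671 (minus strand), chr10:128549154-128549183 (minus), chr4:152324421-152324450 (plus) and chr5:115559452-115559481 (plus).

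Total counts per library lay between 32795699 and 43827517 in C2C12 and between 33030258 and 48546621 in LHCN-M2. The libraries followed their labels in the summed level of 10 skeletal muscle markers. C2C12 was at 270 to 286 CPM on day 0, 414 to 448 on day 1 and 2576 to 2726 on day 6. LHCN-M2 was at 723 to 1020 CPM on day 0, 1837 to 2135 on day 1 and 5513 to 5808 on day 12. Not every marker rose with the days: MYF5 in LHCN-M2 went from 269 to 64.6 and 14.2 CPM. MYOD1 in LHCN-M2 was at 55.6, 261 and 117 CPM. Myogenin (MYOG), a transcription factor of differentiating myoblasts, was at 3.75 ± 0.281, 13.7 ± 1.80 and 143 ± 3.99 CPM (SD, n = 4) on days 0, 1 and 6 of C2C12. In LHCN-M2 it was at 0 counts on day 0, then at 79.8 ± 9.78 CPM on day 1 and 362 ± 16.4 CPM on day 12. PAX7, a marker of muscle stem cells, was under 0.1 CPM in 5 of the 6 groups. Of 7 fibroblast markers 5 to 6 were at or above 1 CPM in C2C12, with Thy1 under 0.1 CPM, and their summed level was 14393 to 16820 CPM on day 0, 14196 to 15474 CPM on day 1 and 10662 to 11138 CPM on day 6. In LHCN-M2 all 7 were at or above 1 CPM, and the sums were 10504 to 10876 CPM on day 0, 14495 to 16817 CPM on day 1 and 24191 to 25199 CPM on day 12. These sums moved with the members in C2C12 and not in LHCN-M2 on the last day. Their part in the results was not tested, nor was that of the neural marker Tubb3, which carried the summed neural level of C2C12 from 15.5 to 19.0 CPM on day 0 to 261 to 281 CPM on day 6. In bulk RNA, fewer cells of a kind and less RNA per cell cannot be told apart.

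Some libraries stood apart from their own group in just these genes. In LHCN-M2 day 0 replicate 2, 77 of 78 members were the highest of the group's 4 libraries, at a median of 1.69 times the mean of the group's other libraries. In LHCN-M2 day 12 replicate 1 the count was again 77, at 1.21 times. In C2C12 day 0 replicate 1 it was 74 of 77 members, and in day 6 replicate 2 it was 63. In each of these 4 libraries shorter genes were high relative to the group, with a Spearman correlation over genes between length and deviation of -0.37, -0.30, -0.27 and -0.26 in the order just given (a description, since genes are not replicates). The members are short: their median length in the deposited gene models was 1781 bases in C2C12, against 3700 for all genes tested, and 70 of 77 lay below that median. In LHCN-M2 the medians were 3055.5 and 4246.5 bases, with 54 of 78 below. Counts of members are therefore also given without the 2 LHCN-M2 libraries together, or without single C2C12 libraries. A length correction is given where it moves them. Values of single C2C12 genes are from all 12 libraries.

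Per kilobase, 2 of the 3 stalk genes were among the highest members in C2C12. Rplp1 stood at 2052 CPM per kilobase, Rplp0 at 1666 and Rpl41, which encodes the smallest ribosomal protein, at 1438, while Rplp2 of the stalk was at 97.0. The lowest were Rpl26 at 12, Rps18 at 16.9 and Rpl29 at 19.6 CPM per kilobase. In LHCN-M2 the highest were RPL41 at 708, RPS2 at 597 and RPL13A at 575, and the lowest RPL26 at 6.19, RPS15A at 9.30 and RPS29 at 12.1 CPM per kilobase. These levels depend on the gene models, which merge all exons of a gene: RPS29 was listed with a length of 9845 bases. They also depend on how reads were shared with near-identical copies. Rows named as pseudogenes of Rps2 held 912 CPM against 150 CPM for Rps2 itself, and those of Rps18 held 382 against 41.4 CPM. In the human table the rows named after RPL9 held 340 CPM against 208 CPM for RPL9. How reads that match several copies were counted is not given in the sources used here, so single low members are uncertain. Just inside the level limit were Rpl26 at 17.4 and Rpl29 at 22.1 CPM, and RPL26 at 15.5 and RPL26L1 at 31.2 CPM. Just outside were Rpl21 at 7.8 and Rps10 at 5.1 CPM, and RPL39L at 4.1 CPM. Other symbols below the limit included Rpl10l, Rpl3l, Rpl39l, Rpl24 and Rpl36al in mouse, and RPL10L, RPL3L, RPS10, RPL17 and RPL36A in human. Several of these have near-identical copies or a readthrough neighbour in common annotations, so their low counts are uncertain as levels.

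As a share of all counts, the members together held 6.61%, 5.64%, 5.50% and 5.65% in the 4 C2C12 libraries of day 0. On day 1 they held 5.0%, 4.91%, 5.09% and 4.76%, and on day 6 they held 4.29%, 4.68%, 4.24% and 4.18%. The 3 days did not overlap, and the group means were 5.85% ± 0.514, 4.94% ± 0.142 and 4.35% ± 0.227 (SD, n = 4). In LHCN-M2 the shares were 4.04%, 6.45%, 3.75% and 3.81% on day 0, and 4.76%, 4.47%, 4.32% and 4.55% on day 1. On day 12 they were 3.47%, 2.84%, 2.80% and 2.87%. Day 12 lay below every other human library. Day 1 lay above the day 0 libraries except replicate 2: without it day 0 averaged 3.87% ± 0.153 (SD, n = 3) and day 1 averaged 4.53% ± 0.184 (SD, n = 4). The small and large subunits moved together. In C2C12 the small-subunit share went from 2.24% ± 0.206 to 1.88% ± 0.0521 and 1.62% ± 0.0822, and the large-subunit share from 3.61% ± 0.308 to 3.06% ± 0.0902 and 2.72% ± 0.145 (SD, n = 4). The proteins of the mitochondrial ribosome (MRP genes), a separate family, went from 0.273% ± 0.0171 on day 0 to 0.239% ± 0.00786 on day 1 and 0.321% ± 0.0134 on day 6 of C2C12 (SD, n = 4). In LHCN-M2 they went from 0.304% ± 0.0584, or 0.275% ± 0.00859 (n = 3) without replicate 2, to 0.238% ± 0.00695 and 0.244% ± 0.0177, with no rise on the last day.

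**Figure D1:**
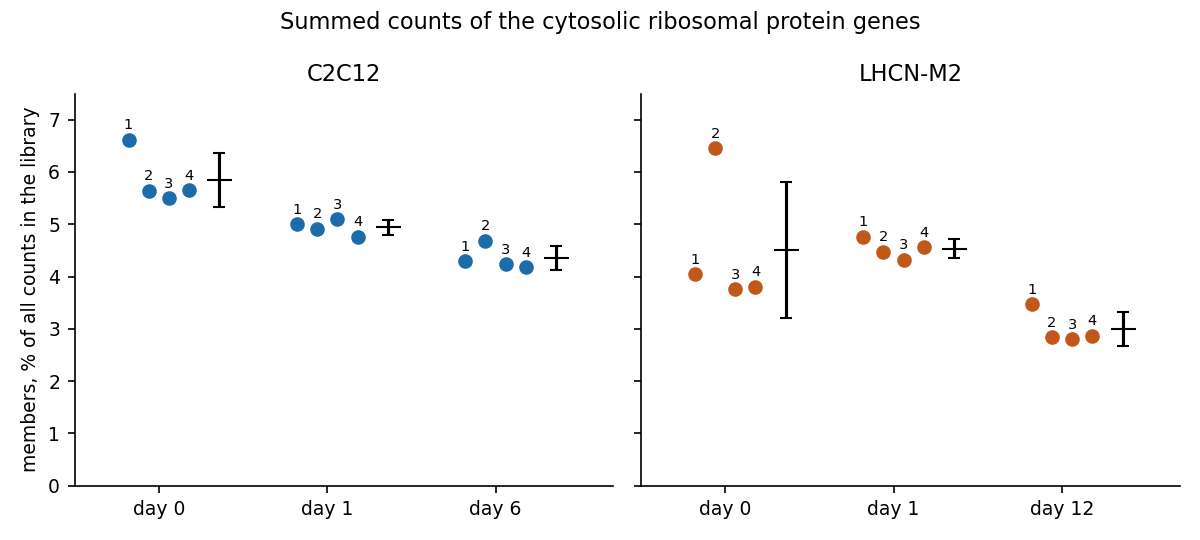
Share of all counts held by the cytosolic ribosomal proteins (percent) in each of the 24 libraries, by day and line, with points numbered by replicate and group means as bars. C2C12 steps down from 5.85% to 4.94% and 4.35%, while LHCN-M2 ends at 3.00% and has 1 library of day 0 at 6.45%.

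In C2C12 most ribosomal protein genes were lower from the first day on. On day 1 against day 0, 58 of 77 fell and 1 rose (adjusted p under 0.05, edgeR's quasi-likelihood test with Benjamini-Hochberg adjustment over all 17065 genes tested), while 24.4% of all genes fell and 25.9% rose. The members' median log2 fold change was -0.24, beside -0.01 for all genes. On day 6 against day 0 again 58 fell and 3 rose, where 32.5% of all genes fell and 33.1% rose, and the median was -0.37 beside -0.03. Of the 58, 23 were of the small and 35 of the large subunit, with medians of -0.38 and -0.33 over all members of each. The 16 that did not pass on day 6 included Rps2, Rps7, Rps24, Rps26 and Rps29 of the small subunit and Rpl7a, Rpl15, Rpl26, Rpl35, Rpl37 and Rpl38 of the large subunit. Between days 1 and 6 the members diverged: 37 fell and 9 rose, where 28.6% of all genes fell and 32.8% rose, with a median of -0.12 beside 0.02. The 3 comparisons share their libraries.

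The fall on the first day depended on gene length and on single libraries. With a smooth trend on gene length removed from each library, 33 fell and 4 rose (all genes 23.9% and 26.4%), with a median of -0.10. Without C2C12 day 0 replicate 1, 32 fell and 2 rose (all genes 20.2% and 27.1%), with a median of -0.13. Without C2C12 day 1 replicate 4, 35 fell and 1 rose (all genes 20% and 25.7%), with a median of -0.18. With the length trend, 57 fell and 3 rose on day 6 against day 0, where 5326 of all 17065 genes fell and 5991 rose. That comparison had 52 fall and 4 rise without C2C12 day 0 replicate 1, with a median of -0.28. In that setting 5536 of all 17537 genes fell and 5634 rose.

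Most members with a pyrimidine run near the start, and most without one, were lower than on day 0 in C2C12. On day 1 against day 0, 23 of 31 with the run fell and 20 of 27 without it, with medians of -0.23 and -0.24, where 24.4% of all genes fell. On day 6 against day 0, 22 fell and 1 rose with the run, and 20 fell and 2 rose without it, with medians of -0.38 and -0.30. Of all genes 32.5% fell and 33.1% rose. On day 6 against day 1, 16 of 31 fell and 5 rose with it (median -0.16), and 10 of 27 fell and 3 rose without it (median -0.11). In that comparison 28.6% of all genes fell and 32.8% rose. The difference between these classes was not tested.

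**Figure D2:**
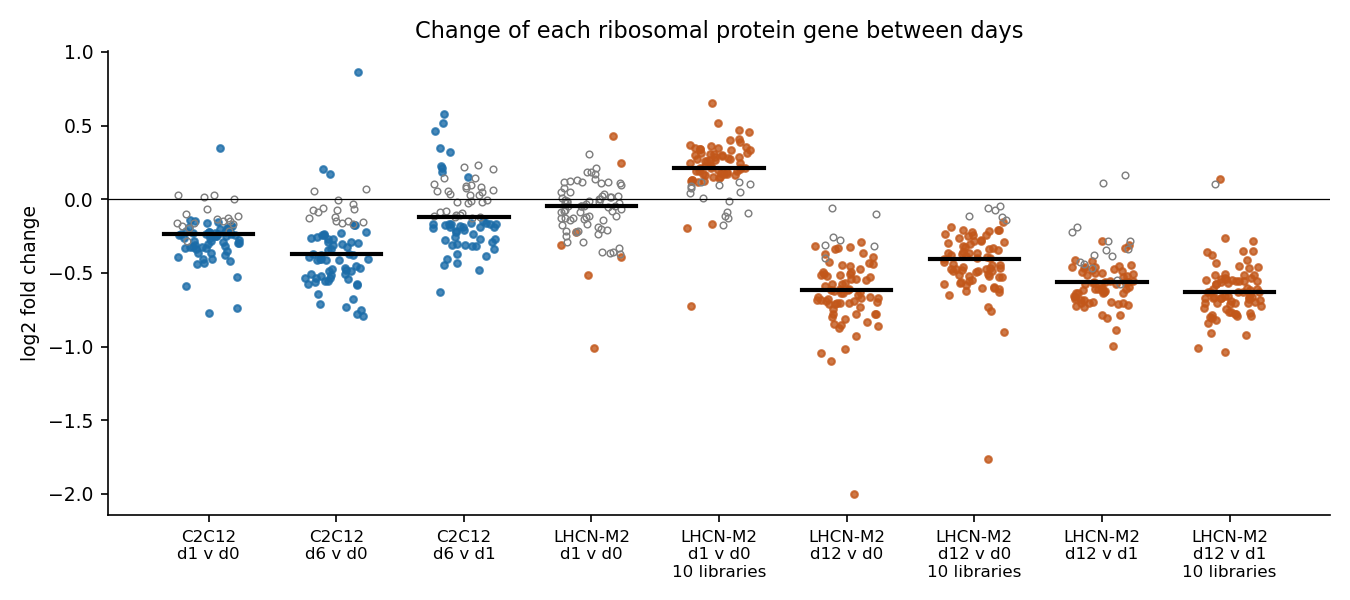
Log2 fold change of each member in the 6 comparisons within a line (filled points passed the test, open points did not), with medians as bars and the LHCN-M2 comparisons also for the 10 libraries left without day 0 replicate 2 and day 12 replicate 1. The medians lie at -0.24, -0.37 and -0.12 in C2C12, and in LHCN-M2 the day 1 median moves from -0.05 to 0.21 without the 2 libraries.

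The stalk proteins, which recruit translation factors to the large subunit, all fell in C2C12. Rplp2 was at 253, 238, 237 and 242 CPM on day 0, at 241, 193, 235 and 206 on day 1 and at 135, 157, 123 and 152 on day 6. Day 6 lay below all libraries of the other days. Its log2 fold change on day 6 was -0.78 ± 0.08 (SE, adjusted p = 1.18e-08) against day 0 and -0.63 ± 0.08 (SE, adjusted p = 2.93e-07) against day 1. Rplp1, its partner in the stalk's dimers, changed by -0.51 ± 0.08 (SE, adjusted p = 1.72e-05) on day 6 against day 0, and Rplp0, the base of the stalk, by -0.37 ± 0.06 (SE, adjusted p = 1.27e-05).

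Other large-subunit proteins near the top of the fall were Rpl3, which reaches to the peptidyl transferase centre, and Rpl4, which lines the exit tunnel. Rpl3 was at 1531, 1371, 1393 and 1330.0 CPM on day 0, at 923, 987, 926 and 898 on day 1 and at 815, 864, 821 and 838 on day 6. No library of day 0 overlapped with later days, and the fold change was -0.59 ± 0.05 (SE, adjusted p = 3.04e-09) on day 1 and -0.75 ± 0.05 (SE, adjusted p = 2.07e-11) on day 6. Rows named as pseudogenes of Rpl3 held 673 CPM against 1058 CPM for Rpl3 itself, so its level depends on how reads were shared. Rpl4 was at 2597, 2315, 2215 and 2281 CPM on day 0 and at 1306, 1445, 1351 and 1320.2 on day 6. Its day 6 libraries lay below those of day 0, with a fold change of -0.79 ± 0.05 (SE, adjusted p = 1.54e-11). Rpl13a, known also from translational control in inflammation, was at 53.2, 57.2, 57.6 and 54.8 CPM on day 1 and at 40.4, 44.8, 38.0 and 36.9 on day 6, a change of -0.48 ± 0.07 (SE, adjusted p = 7.37e-06).

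In the small subunit the first day was led by Rps27a and Rps2. Rps27a, made as a fusion with ubiquitin, was at 513, 310.2, 511 and 253 CPM on day 0 and at 233, 240.3, 238 and 220.3 on day 1, without overlap. The change was -0.77 ± 0.16 (SE, adjusted p = 0.000504). On day 6 it was at 322, 254, 305 and 216 CPM, with a log2 fold change against day 1 of 0.24 ± 0.16 (SE, adjusted p = 0.219). Rps2 was at 193, 196, 171 and 162 CPM on day 0, at 142, 123, 86.4 and 81.1 on day 1 and at 162, 174, 156 and 153 on day 6, so it was low on day 1 alone. It fell by 0.74 ± 0.12 (SE, adjusted p = 3.87e-05) on the log2 scale and then rose by 0.58 ± 0.12 (SE, adjusted p = 0.000355). With the counts of its copies added, the fall became -0.53 (adjusted p = 2.31e-07) and the rise 0.13 (adjusted p = 0.0602), where the copies hold most of the summed counts. The share of their reads that comes from Rps2 mRNA was not tested. Rps20 was at 757, 676, 675 and 646 CPM on day 1 and at 496, 571, 496 and 479 on day 6, a change of -0.43 ± 0.08 (SE, adjusted p = 4.36e-05).

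Few members rose in C2C12. Rpl7l1, a paralog of Rpl7 also assigned to ribosome assembly, was at 115, 98.0, 86.4 and 91.1 CPM on day 0, at 130.1, 126, 123 and 118 on day 1 and at 176, 182, 189 and 164 on day 6. The days did not overlap, and it rose by 0.35 ± 0.07 (SE, adjusted p = 0.000393) on day 1 and 0.86 ± 0.07 (SE, adjusted p = 1.18e-09) on day 6 against day 0. Rpl41 was at 1987, 1619, 1626 and 1523 CPM on day 0, at 1381, 1425, 1467 and 1355 on day 1 and at 1878, 2186, 1912 and 1795 on day 6. Its change was -0.26 ± 0.07 (SE, adjusted p = 0.00329) on day 1 against day 0 and 0.47 ± 0.07 (SE, adjusted p = 5.86e-06) on day 6 against day 1. Rps27l, a paralog of Rps27 known as a p53 target, was the third member to rise on day 6 against day 0, at 0.17 ± 0.07 (SE, adjusted p = 0.0452).

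In LHCN-M2 nearly every ribosomal protein gene was lower on day 12. Against day 0, 71 of 78 fell and 0 rose, where 27.5% of all 18214 genes tested fell and 27.1% rose. All 78 log2 fold changes were below 0, so no member was higher at an unadjusted p under 0.05 or by DESeq2 either. The median was -0.62, beside -0.01 for all genes. Against day 1, 63 fell and 0 rose (all genes 18.8% and 20.9%), with a median of -0.56. Only 2 members, RPL7L1 and RPL26L1, had a fold change above 0 here, of which 1 had an unadjusted p under 0.05 in edgeR and DESeq2 called 1. Without day 0 replicate 2 and day 12 replicate 1, 72 fell and 0 rose against day 0 (all genes 27.4% and 29.4%), with a median of -0.40. Against day 1, 76 fell and 1 rose without them (all genes 23.7% and 25.2%), with a median of -0.63. The 7 members that did not pass against day 0 were RPL7L1, RPL22, RPL26L1, RPL39, RPLP1, RPS27 and RPS29.

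The first day in LHCN-M2 depended on which libraries entered. With all 12 libraries 5 members fell and 2 rose, fewer than the 23.5% and 23.4% of all genes, and the median was -0.05 beside 0.03, though it was 0.02 with library totals (all genes 0.09) or with upper quartile scaling (all genes 0.10) in place of TMM, below all genes each time. The 5 were RPL22L1, RPSA, RPL26L1, RPS7 and RPL7L1, of which RPS7 is named because the count is small. Without day 0 replicate 2 and day 12 replicate 1, 60 rose and 3 fell, where 28.3% of all genes rose and 24.7% fell, and the median was 0.21 beside 0.08. The cause of the high level in replicate 2 was not tested. Its short genes were high as a class. With the length trend 4 members were higher and 7 lower on this day, where 4258 of all 18214 genes were higher and 4752 lower.

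RPL22L1 changed more than any other member of either line. It lies at chromosome 3, 170864875 to 170870483, minus strand (GRCh38 in the submitters' processing notes). It was at 121, 195, 103 and 107 CPM on day 0, at 71.4, 68.9, 57.5 and 63.3 on day 1 and at 35.2, 32.8, 33.6 and 29.4 on day 12. The days did not overlap, and it fell by 1.01 ± 0.16 (SE, adjusted p = 0.000128) and 2.002 ± 0.17 (SE, adjusted p = 9.83e-08) on the log2 scale on days 1 and 12 against day 0. With those 2 libraries left out the changes were -0.73 (adjusted p = 1.94e-08) and -1.76 (adjusted p = 3.28e-14).

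Of the small subunit, RPSA, also known as the laminin receptor, was at 955, 1886, 955 and 922 CPM on day 0, at 856, 838, 802 and 808 on day 1 and at 654, 543, 559 and 576 on day 12. Replicate 2 was far above the other day 0 libraries. The change was -0.51 ± 0.18 (SE, adjusted p = 0.0304) on day 1 and -1.02 ± 0.18 (SE, adjusted p = 0.000238) on day 12 against day 0. In the 10 remaining libraries these were -0.17 (adjusted p = 0.000889) and -0.73 (adjusted p = 9.36e-13). RPS21 was at 169, 338, 147 and 170.4 CPM on day 0 and at 118, 102, 86.1 and 94.4 on day 12. Its change was -1.04 ± 0.21 (SE, adjusted p = 0.000536), and without the 2 libraries -0.76 (adjusted p = 9.84e-09). RPS9, a protein of the early assembled small subunit, was at 749.7, 686, 703 and 775 CPM on day 1 and at 502, 392, 340.1 and 432 on day 12, with no overlap. Its change was -0.81 ± 0.20 (SE, adjusted p = 0.00499).

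The only members to rise on day 1 with all libraries were RPS27 and RPS23. RPS27 was at 256, 372, 221 and 223 CPM on day 0 and at 384, 331, 367 and 359 on day 1, and it rose by 0.43 ± 0.14 (SE, adjusted p = 0.0225). RPS23, a protein of the decoding centre, was at 149, 166, 125 and 143 CPM on day 0 and at 174, 165, 170.5 and 182 on day 1, and it rose by 0.24 ± 0.09 (SE, adjusted p = 0.0452). Their changes in those 10 libraries were 0.65 (adjusted p = 2.01e-09) and 0.34 (adjusted p = 8.71e-05).

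Of the large subunit, RPL8, whose protein lies close to the peptidyl transferase centre, was at 959, 1569, 798 and 869.8 CPM on day 0 and at 576, 475, 438 and 469 on day 12. Its change was -1.099 ± 0.17 (SE, adjusted p = 5.54e-05), and without the 2 libraries -0.90 (adjusted p = 2.64e-11). RPL28 was at 851, 681, 729 and 789 CPM on day 1 and at 508, 361, 398 and 381 on day 12, without overlap. It fell by 0.89 ± 0.22 (SE, adjusted p = 0.00423) on the log2 scale. RPL26L1, a paralog of RPL26, changed by -0.39 ± 0.13 (SE, adjusted p = 0.025) on day 1 against day 0. In the 10 libraries this was -0.17 (adjusted p = 0.0608), and on day 12 with all libraries it was -0.28 ± 0.13 (SE, adjusted p = 0.0902).

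A common fall can hide unequal change, so each member was also scaled to the summed counts of all members. This scaling was chosen after the data were seen, and under it the median of all genes reached 0.35 in C2C12 and 0.58 in LHCN-M2. Around the sum, the middle 50% of members in C2C12 lay between -0.13 and 0.21 on day 6 against day 0. In LHCN-M2 they lay between -0.08 and 0.16 on day 12 against day 0. Relative to the family, the lowest on day 6 in C2C12 were Rpl4 at -0.41, Rplp2 at -0.40 and Rpl3 at -0.37. The highest were Rpl7l1 at 1.25, Rpl41 at 0.58 and Rps27l at 0.56. On day 12 in LHCN-M2 the lowest were RPL22L1 at -1.35 and RPL8 at -0.45, and the highest RPL7L1 at 0.50 and RPL22 at 0.50. With all libraries RPL7L1 was thus the highest relative to the family in C2C12 and level with RPL22 at the top in LHCN-M2. RPL7L1 itself had a log2 fold change of -0.06 ± 0.06 (SE, adjusted p = 0.458) in LHCN-M2. In LHCN-M2 day 0 replicate 2, RPL22 was at 1.30 times the mean of the group's other libraries and RPL7L1 at 1.00 times. The order of these genes may depend on that library.

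Paralogs and their parent genes differed in how their ratio moved. In LHCN-M2, RPL22L1 stood at 256% ± 43.8 of RPL22 per kilobase on day 0, at 114% ± 8.96 on day 1 and at 69.9% ± 4.88 on day 12 (SD, n = 4). Per kilobase the paralog thus went from above its parent to below it. By CPM, without the length scaling, it stood at 127% on day 0 and already at 56.7% on day 1. The RPL22 protein is known to hold down RPL22L1, but protein was not measured and this link was not tested. RPL22 itself was at 101 ± 14.6, 115 ± 6.12 and 94.7 ± 10.05 CPM (SD, n = 4), with log2 fold changes of 0.18 ± 0.10 (SE, adjusted p = 0.154) on day 1 and -0.10 ± 0.10 (SE, adjusted p = 0.445) on day 12 against day 0. In C2C12 the same paralog stood at 27.7% ± 2.18, 23.9% ± 2.06 and 22.3% ± 1.88 of Rpl22 per kilobase on days 0, 1 and 6 (SD, n = 4), below its parent on each day. There Rpl22l1 changed by -0.64 ± 0.08 (SE, adjusted p = 4.49e-07) and Rpl22 by -0.32 ± 0.06 (SE, adjusted p = 4.85e-05) on day 6 against day 0.

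Rpl7l1 stood at 5.04% ± 0.371 of Rpl7 per kilobase on day 0, at 7.51% ± 0.413 on day 1 and at 12.6% ± 0.705 on day 6 (SD, n = 4), with no overlap between days. In LHCN-M2 it was at 9.45% ± 1.83, 7.78% ± 0.464 and 13.5% ± 0.570 on days 0, 1 and 12. Rps27l was at 81.5% ± 22.0, 69.7% ± 12.6 and 117% ± 22.6 of Rps27 per kilobase in C2C12, with days that overlapped, and RPS27L at 10.1% ± 1.22, 7.28% ± 0.658 and 9.38% ± 0.252 of RPS27. RPL26L1 was above RPL26 in LHCN-M2 on each day, at 425% ± 70.3, 382% ± 56.9 and 515% ± 39.8, where RPL26 was a low row.

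Of the paralogs known from single tissues, RPL3L and RPL10L were near 0 in these cultures, while RPL39L had a mean of 4.12 CPM in LHCN-M2. The muscle paralog RPL3L reached at most 0.0170% of Rpl3 per kilobase in a C2C12 library and 0.121% of RPL3 in a LHCN-M2 library, with 11 counts in all 12 mouse libraries and 141 in all 12 human libraries. RPL10L, known from male germ cells, had 0 counts in all 24 libraries, which allows up to 3 counts in each by counting error alone. RPL39L, also known from the testis, stood at 5.61% ± 1.05, 1.41% ± 0.206 and 3.07% ± 1.06 of RPL39 per kilobase on days 0, 1 and 12 of LHCN-M2 (SD, n = 4). RPL36AL was at 121 CPM in LHCN-M2 and RPL36A at 4.04, while in C2C12 the order was the other way, with Rpl36al at 0.778 and Rpl36a at 325 CPM. Since the RPL36A row may lose reads to overlapping annotation, this contrast is uncertain.

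**Figure D3:**
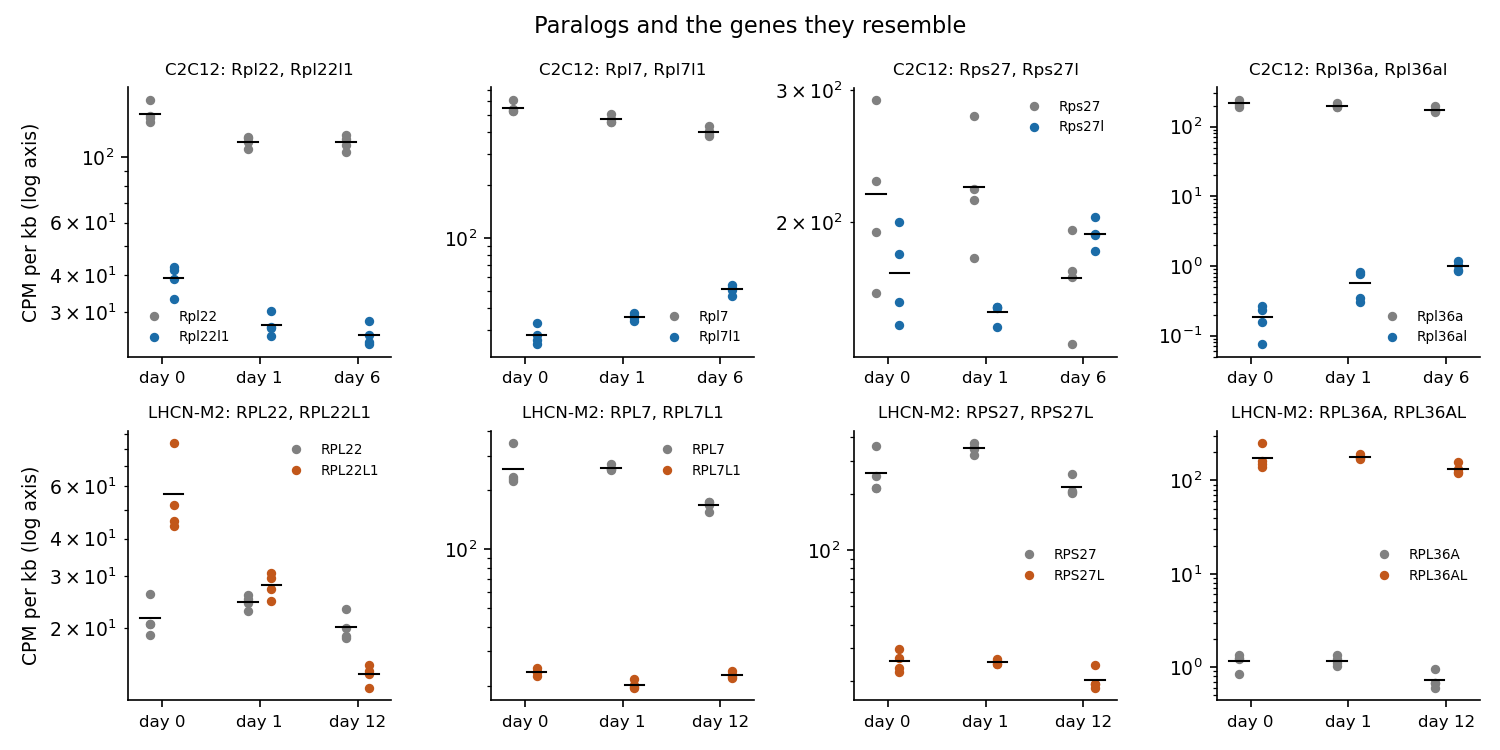
Levels of 4 paralog pairs in CPM per kilobase (log axis, each panel with its own range) by day in C2C12 (top) and LHCN-M2 (bottom), with a point for each library and bars for the means. RPL22L1 lies above RPL22 on day 0 of LHCN-M2 (256%) and below it on day 12 (69.9%), while in C2C12 Rpl22l1 lies below Rpl22 throughout.

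The lines were compared by testing the difference between their fold changes in a fit of all 24 libraries over 10953 genes matched by symbol, 73 of them members. The last days differ, day 6 in C2C12 and day 12 in LHCN-M2, so these differences are between different times. For day 1 against day 0, 9 members were higher and 2 lower in LHCN-M2 than in C2C12 (all genes 26% and 34%), with a median difference of 0.21. Without the 2 LHCN-M2 libraries 65 were higher and 1 lower (all genes 31.2% and 35.3%), with a median of 0.46. With the length trend 31 were higher and 2 lower (all genes 30.5% and 32.5%). For the last day against day 0, 0 were higher and 21 lower (all genes 31.2% and 40%), with a median of -0.27, beside -0.13 for all matched genes. At an unadjusted p under 0.05 edgeR also had 0 higher, and DESeq2 called 2 higher and 11 lower. Without the 2 libraries 9 were higher and 20 lower (all genes 34% and 40.3%). With the length trend 19 were higher and 6 lower (all genes 35.8% and 36.1%), and the median turned to 0.09. The lines' net change to the last day therefore had no direction that held under these settings.

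In the later phase, from day 1 to the last day, 39 members were lower and 0 higher in LHCN-M2 than in C2C12 (all genes 29.9% and 27%), with a median of -0.45 beside -0.05. At an unadjusted p under 0.05 edgeR had 47 lower and 0 higher, and DESeq2 called 34.0 lower and 0.0 higher. All 73 except 1 had a difference below 0. Without the 2 libraries 69 were lower and 0 higher (all genes 35.2% and 30.2%). With the length trend 15 were lower and 1 higher (all genes 27.8% and 29.8%), with a median of -0.17, so the count depends on gene length.

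With all libraries, the largest differences in the lower direction on the first day and to the last day were in paralogs. RPL22L1 differed by -0.48 ± 0.20 (SE, adjusted p = 0.0381) on the first day, -1.36 ± 0.20 (SE, adjusted p = 1.41e-06) to the last day and -0.88 ± 0.20 (SE, adjusted p = 0.000562) in the later phase, lower in LHCN-M2 each time. RPL7L1 differed by -0.57 ± 0.10 (SE, adjusted p = 2.18e-05) on the first day and -0.92 ± 0.10 (SE, adjusted p = 9.03e-09) to the last day, where it rose in C2C12. Without the 2 LHCN-M2 libraries only 1 member was lower on the first day, so RPL22L1 and RPL7L1 did not both keep that call. Library totals or DESeq2 also left 1 member lower. RPL22 differed by 0.50 ± 0.12 (SE, adjusted p = 0.000929), RPS23 by 0.47 ± 0.13 (SE, adjusted p = 0.00265) and RPL3 by 0.70 ± 0.15 (SE, adjusted p = 0.000307) on the first day, all higher in LHCN-M2. RPL8 differed by -0.76 ± 0.19 (SE, adjusted p = 0.00116) to the last day, and by -0.57 (adjusted p = 8.58e-06) without the 2 libraries. In the later phase RPS2 differed by -1.24 ± 0.24 (SE, adjusted p = 0.000135), which involves the mouse row with many copies, and RPL7A by -0.94 ± 0.24 (SE, adjusted p = 0.00203).

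**Figure D4:**
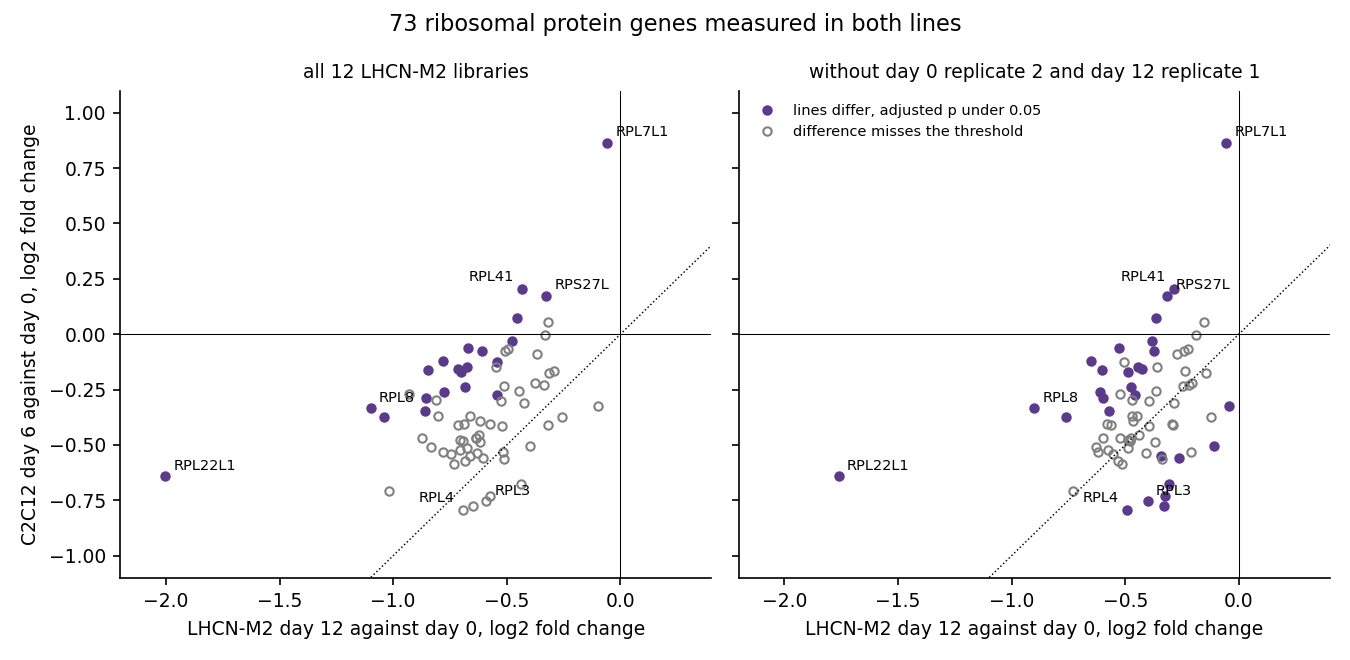
Log2 fold change of the 73 matched members from day 0 to day 12 in LHCN-M2 (x axis) and to day 6 in C2C12 (y axis), with all LHCN-M2 libraries (left) and without day 0 replicate 2 and day 12 replicate 1 (right). Filled points differ between lines at an adjusted p under 0.05 and the dotted line marks equal change: RPL22L1 is at -2.002 in LHCN-M2 with all libraries, and RPL7L1 at 0.86 in C2C12.

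The factors that build ribosomes were mostly higher in C2C12. Of 44 ribosome biogenesis genes 43 rose and 1 fell on day 6 against day 0, with a median of 0.86, where 33.1% of all genes rose and 32.5% fell. On day 1, 26 rose and 4 fell, with a median of 0.26, where 25.9% of all genes rose and 24.4% fell. The largest rise was that of Rrp12, an export factor of both subunits, at 1.60 ± 0.09 (SE, adjusted p = 2.96e-12), and the only fall on day 6 was Rrp1b at -0.28 ± 0.07 (SE, adjusted p = 0.00125). Tsr1, needed for maturation of the small subunit, led on day 1 at 0.88 ± 0.07 (SE, adjusted p = 3.7e-09). In LHCN-M2 37 of 44 fell and 1 rose on day 1, with a median of -0.62, where 23.5% of all genes fell, and 30 fell and 1 rose on day 12, with a median of -0.51, where 27.5% of all genes fell and 27.1% rose. Fibrillarin (FBL), the methyltransferase of ribosomal RNA, fell by 1.75 ± 0.17 (SE, adjusted p = 4.46e-07) on the log2 scale on day 12, and the nucleolar protein LYAR fell by 1.35 ± 0.16 (SE, adjusted p = 5.26e-06) on day 1. SBDS, which helps to release a blocking factor from the large subunit, rose by 0.71 ± 0.08 (SE, adjusted p = 2.96e-06) on day 12. Without the 2 LHCN-M2 libraries the counts were 37 lower and 2 higher on day 1 (all genes 24.7% and 28.3%), and 35 lower and 1 higher on day 12 (all genes 27.4% and 29.4%). So on day 1 of LHCN-M2 without those libraries the biogenesis list had a median of -0.60 and the ribosomal proteins 0.21.

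RNA polymerase I, which makes the large ribosomal RNA precursor, and its factors had 9 of 14 genes higher and 1 lower on day 6 of C2C12 against day 0, with a median of 0.36 (all genes 33.1% and 32.5%). Polr1e was highest at 1.04 ± 0.11 (SE, adjusted p = 5.08e-08). In LHCN-M2 8 of 12 were lower and 1 higher on day 12, with a median of -0.41 (all genes 27.5% and 27.1%). Without the 2 libraries 9 were lower and 2 higher (all genes 27.4% and 29.4%). TAF1B, part of the factor that selects its promoter, fell by 0.85 ± 0.10 (SE, adjusted p = 2.48e-06) on the log2 scale, and RRN3, which activates the polymerase, rose by 0.39 ± 0.08 (SE, adjusted p = 0.000958).

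The translation factors and ribosome-bound proteins known to have TOP mRNAs were mostly lower by the last day. In C2C12 12 of 22 fell and 1 rose on day 1, and 13 fell and 2 rose on day 6 against day 0, with medians of -0.17 and -0.29. Of all genes 24.4% fell and 25.9% rose on day 1, and 32.5% and 33.1% on day 6. In LHCN-M2 7 of 21 rose and 3 fell on day 1, and 18 fell and 0 rose on day 12, with medians of 0.01 and -0.46. The all-gene shares were 23.4% higher and 23.5% lower on day 1, and 27.1% and 27.5% on day 12. Without the 2 libraries 12 rose and 3 fell on day 1, and 18 fell and 1 rose on day 12, where 28.3% of all genes rose on day 1 and 27.4% fell on day 12. For day 12 with all libraries, edgeR at an unadjusted p under 0.05 and DESeq2 also had 0 higher. Eif3f, a subunit of the initiation factor eIF3, fell by 0.91 ± 0.07 (SE, adjusted p = 4.36e-10) on day 6 in C2C12. EIF4B, which helps the initiation helicase, rose by 0.81 ± 0.07 (SE, adjusted p = 1.46e-07) on day 1 of LHCN-M2 and had a log2 fold change of -1.07 ± 0.07 (SE, adjusted p = 1.52e-08) on day 12 against day 1. HNRNPA1, an RNA-binding protein, changed by -0.93 ± 0.07 (SE, adjusted p = 2.63e-08) on day 12.

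The other initiation factors, without TOP mRNAs as a class, had 17 of 25 higher and 5 lower on day 6 of C2C12, with a median of 0.32 (all genes 33.1% and 32.5%), and 15 of 27 lower and 1 higher on day 12 of LHCN-M2, with a median of -0.22 (all genes 27.5% and 27.1%). Without the 2 libraries 16 were lower and 2 higher on day 12 (all genes 27.4% and 29.4%). Eif5, which promotes GTP hydrolysis at the start codon, rose by 1.26 ± 0.05 (SE, adjusted p = 2.17e-14), and Eif3c changed by -0.61 ± 0.04 (SE, adjusted p = 1.4e-10) in C2C12. In LHCN-M2 EIF5A, an elongation and termination factor despite its name, changed by -1.35 ± 0.09 (SE, adjusted p = 9.84e-09), and the helicase EIF4A2 rose by 0.54 ± 0.06 (SE, adjusted p = 1.72e-06) on day 12.

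Among 28 regulators of TOP mRNAs and of mTORC1, 18 fell and 6 rose on day 6 of C2C12 against day 0, with a median of -0.39, where 32.5% of all genes fell and 33.1% rose. In LHCN-M2 10 fell and 12 rose on day 12, with a median of 0.00, where 27.5% of all genes fell and 27.1% rose. The list holds activators and inhibitors, so its direction is not that of the pathway. EIF4EBP1, the cap-binding inhibitor that mTORC1 switches off, was the largest fall of the list on day 1 in both lines, at -2.102 ± 0.08 (SE, adjusted p = 1.62e-14) in C2C12 and -1.94 ± 0.19 (SE, adjusted p = 8.43e-07) in LHCN-M2. The sestrin SESN3, an mTORC1 inhibitor, was its largest rise on day 1 in both, at 1.14 ± 0.06 (SE, adjusted p = 1.61e-12) and 2.27 ± 0.14 (SE, adjusted p = 3.8e-09). On the last day Sesn2 was lowest in C2C12 at -2.07 ± 0.11 (SE, adjusted p = 1.12e-12), and DEPTOR, another inhibitor, highest in LHCN-M2 at 3.22 ± 0.21 (SE, adjusted p = 4.18e-09). MYC, an activator of ribosomal genes, changed by -1.21 ± 0.10 (SE, adjusted p = 7.41e-08) on day 12 of LHCN-M2.

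Genes of the p53 response to free ribosomal proteins had 4 of 7 higher and 3 lower on day 6 of C2C12, and 2 of 8 higher and 3 lower on day 12 of LHCN-M2, with medians of 0.22 and -0.27. Of all genes 33.1% were higher and 32.5% lower in the first, and 27.1% and 27.5% in the second. Without the 2 libraries 2 were higher and 5 lower on day 12 (all genes 29.4% and 27.4%). CDKN1A, a p53 target and cell cycle inhibitor that also rises in muscle differentiation, rose by 1.45 ± 0.06 (SE, adjusted p = 3.66e-15) in C2C12 and 1.34 ± 0.07 (SE, adjusted p = 3.68e-10) in LHCN-M2. The S6 kinases, which the name rule left out, had 2 of 9 higher and 4 lower on day 6 of C2C12 (median -0.41), and 6 of 10 higher and 3 lower on day 12 of LHCN-M2 (median 0.28). The same shares of all genes stand beside these counts, and with 9 and 10 genes nothing is read from them. RPS6KA1 fell in both, at -1.77 ± 0.43 (SE, adjusted p = 0.00106) and -1.87 ± 0.30 (SE, adjusted p = 7.26e-05). Rps6kb1, the kinase of Rps6 that mTORC1 activates, rose by 0.25 ± 0.05 (SE, adjusted p = 0.000351) in C2C12.

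**Figure D5:**
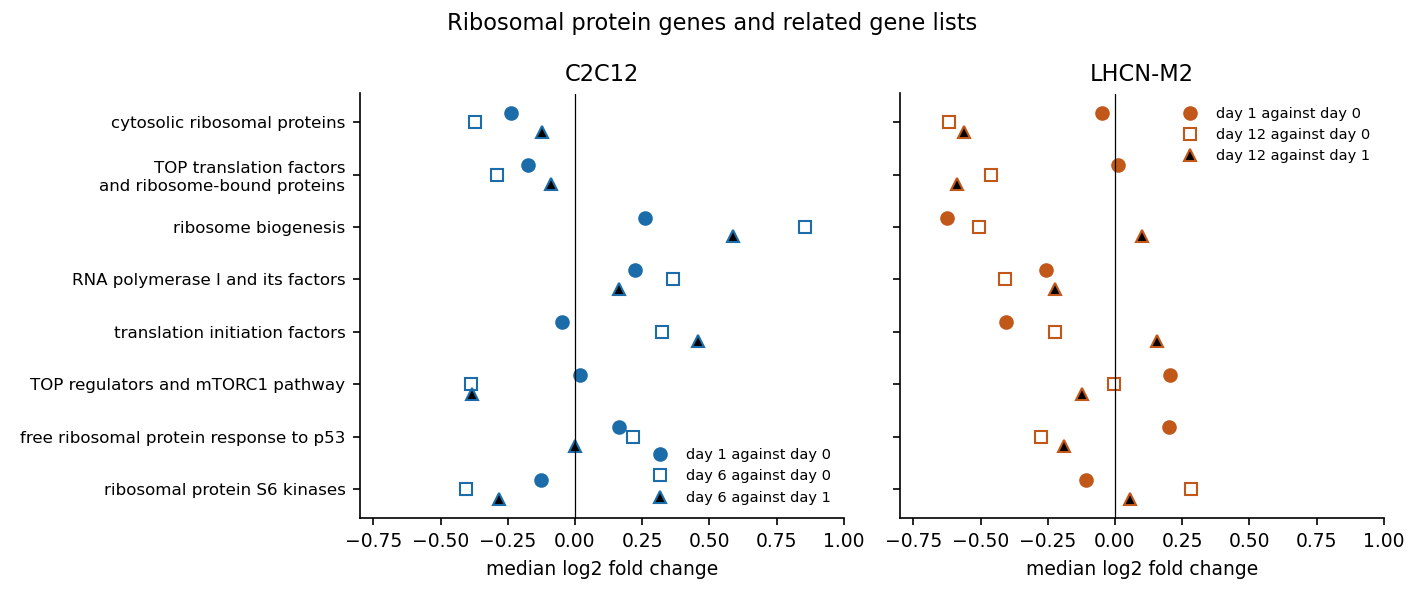
Median log2 fold change (x axis) of the ribosomal proteins and of each list of translation and ribosome genes, for the 3 comparisons within each line (symbols). Ribosome biogenesis has a median of 0.86 on day 6 of C2C12 and of -0.51 on day 12 of LHCN-M2, while the ribosomal proteins lie at -0.37 and -0.62.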

How the data were processed

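The deposited tables hold raw read counts per gene for 24 poly-A libraries. Per the submitters' processing notes the authors used fastp, HISAT2 (2.2.1), featureCounts (2.0.6) and StringTie (2.2.3) with mm10 and hg38 (GRCh38). For the annotation release, the strand setting and reads that match several copies, the step is not given in the sources used here. Every column of per-sample values matched a sample. Levels are CPM with TMM factors. Fold changes come from edgeR 4.0.16 (R 4.3.3): genes kept by filterByExpr, TMM, the quasi-likelihood test on the 12 libraries of a line (24 for the lines' differences), and Benjamini-Hochberg adjustment over all genes tested, with calls at 0.05. The fits were tested on simulated data. Alternatives were DESeq2 1.42.0, other scalings and filters, a length trend, added pseudogene rows, a replicate block and left-out libraries. Replicate numbers did not pair the libraries: correlations of same-numbered libraries' deviations were between -0.053 and 0.039 (C2C12) and between -0.100 and 0.091 (LHCN-M2). Named are the paralog pairs, the 3 largest called rises and falls without overlap per comparison, the 3 largest called differences between lines in each direction, the 3 highest and 3 lowest per kilobase, the members nearest the level limit, and the largest called change each way in each list. Members, lists and tests were chosen with earlier results of these data known. Sequences are from RefSeq, for mouse only. Some members are not reported by name here.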

Additional observations from a re-analysis of the deposited data

Results flagged for a closer look

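In groups of 4 libraries a single library can lie far from the others by a set gap rule, which chance alone meets in about 1 in 20 groups. C2C12 day 0 had such a library in the members' share of counts, replicate 1 at 6.61%. LHCN-M2 day 0 had replicate 2 at 6.45%, and its rows named as copies of members at 0.272%, and LHCN-M2 day 12 had replicate 1 at 3.47%. Counted gene by gene, 56 members were set apart as the highest in LHCN-M2 day 0 replicate 2, 14 in LHCN-M2 day 12 replicate 1 and 9 in C2C12 day 0 replicate 1. Members share a library, so these counts are not independent. Of the members named for the largest falls in LHCN-M2, day 0 replicate 2 stood apart for RPSA at 1886 CPM, RPL28 at 1266 CPM, RPS9 at 1215 CPM, RPS21 at 338 CPM and RPL26L1 at 49.8 CPM. Others described above for which it stood apart include RPS2, RPL3, RPL13A, RPL41 and RPL7A. LHCN-M2 day 12 replicate 2 stood apart for RPL26L1, at the low end, at 26.4 CPM.

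Single members whose fold change differed between the lines by the interaction test with all 24 libraries were as follows, as LHCN-M2 minus C2C12 on the log2 scale. For day 1 against day 0 they were RPL7L1 at -0.57, RPL22L1 at -0.48, RPS23 at 0.47, RPL22 at 0.50 and RPL3 at 0.70. For the last day against day 0 they were RPL7L1 at -0.92, RPL22L1 at -1.36 and RPL8 at -0.76. For the last day against day 1 they were RPL22L1 at -0.88, RPS2 at -1.24 and RPL7A at -0.94.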

How the results depend on the processing

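Over the counts of members, medians and shares, 682 of 812 values under another setting stayed within 1.5 times or 1 SD of the reported value with the same sign, 115 moved and 15 changed sign. For named genes 3908 of 4190 kept direction and call, 183 lost the call, 98 gained it and 1 turned: Rps10, below the level limit, had -0.30 on day 6 of C2C12 with its copies added, against 0.61. For C2C12 day 1 against day 0 the median was -0.10 with the length trend, 33 fell and 4 rose; 2 rose with a 1 CPM limit and 0 without the paralogs ending in L or L1. For day 6 against day 0 the median was -0.48 with the stricter filter (mean of 10 CPM); 1 rose with upper quartile scaling, with that filter or without the paralogs, and 5 with the 1 CPM limit. For day 6 against day 1 the medians were -0.20 with the stricter filter and -0.22 with the length trend, and 5 rose with that filter or with copies added. For LHCN-M2 day 1 against day 0 the median was 0.0235 with library totals (6 rose, 3 fell), 0.0223 with upper quartile scaling (5 rose, 1 fell), 0.0378 with the stricter filter (6 rose, 2 fell) and 0.21 without day 0 replicate 2 and day 12 replicate 1 (60 rose, 3 fell). There 4 rose with the length trend, 3 fell with the replicate block or a 100 CPM limit, 1 rose and 2 fell with only the 2 days compared, 8 fell with the 1 CPM limit and 2 without the paralogs. For LHCN-M2 day 12 against day 1, 1 rose with the stricter filter, DESeq2, only the 2 days compared or without the 2 libraries. The replicate block changed no other count of members by over 1.5 times, and these libraries share only a number. For LHCN-M2 day 1 against day 0, 4722 of all 18214 genes rose and 3805 fell with library totals. With upper quartile scaling 4822 rose and 3751 fell. Most other counts here have no all-gene share beside them, so those counts show only how far they move with the setting.

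Scaling to the summed members, added after seeing the data, sets the family's sum to no change by construction. With this scaling the median of all genes was 0.24, 0.35 and 0.15 in C2C12 and 0.02, 0.56 and 0.58 in LHCN-M2. Under it the members' C2C12 medians were 0.0164 (6 rose, 9 fell), 0.0298 (22 rose, 16 fell) and 0.00299 (23 rose, 14 fell) for days 1 against 0, 6 against 0 and 6 against 1, where of all 17065 genes 6805 rose and 1875 fell, 8261 and 2936, and 6315 and 3689. In LHCN-M2 they were 0.00241, 0.0357 (10 rose, 4 fell) and 0.0148 (6 rose, 2 fell), where of all 18214 genes 2891 rose and 3145 fell, 8380 and 1449, and 8640 and 554, and without the 2 libraries 0.000483 (11 rose, 13 fell), 0.0376 (23 rose, 12 fell) and 0.0185 (17 rose, 14 fell), where of all genes 3498 and 6358, 9307 and 2217, and 11453 and 808 did.

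For the lines' difference on the first day, 15 were higher with library totals, 17 with DESeq2, 31 with the length trend and 65 without the 2 libraries, and 1 was lower with library totals, TMM without the members, DESeq2 or without the 2 libraries. To the last day the median was 0.085 with the length trend (19 higher, 6 lower). With library totals 2 were higher and 13 lower, and with DESeq2 2 and 11. Of all 10953 genes 3719 were higher and 3994 lower with library totals, and 4045 and 3872 with DESeq2. Without the 2 libraries 9 members were higher. In the later phase the median was -0.17 with the length trend (1 higher, 15 lower), and 69 were lower without the 2 libraries. With pseudogene rows the shares were 6.38%, 5.36% and 4.73% in C2C12 and 4.72% on day 1 of LHCN-M2.

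Leaving out each library in turn, C2C12 day 1 against day 0 had 1 to 2 higher, 32 to 56 lower and a median of -0.24 to -0.13. Day 6 against day 0 had 1 to 4 higher and a median of -0.40 to -0.28, and day 6 against day 1 had 4 to 8 higher and a median of -0.21 to -0.11, with 4 higher without day 6 replicate 2 and 5 without day 1 replicate 2 or 4. LHCN-M2 day 1 against day 0 had 0 to 47 higher, 1 to 7 lower and a median of -0.14 to 0.20, the upper end without day 0 replicate 2. LHCN-M2 day 12 had a median of -0.71 to -0.36 against day 0, and 0 to 1 higher against day 1. The first-day difference had 4 to 63 higher and 1 to 2 lower, with 63 without LHCN-M2 day 0 replicate 2 and 4 without C2C12 day 0 replicate 1, C2C12 day 1 replicate 4 or LHCN-M2 day 0 replicate 4. The last-day difference had 0 to 10 higher and 13 to 31 lower, with 13 lower without LHCN-M2 day 0 replicate 2 or C2C12 day 0 replicate 4. The later-phase difference had 28 to 68 lower, the upper end without LHCN-M2 day 0 replicate 2. The causes were not tested. All-gene shares differ between these fits and are given above only for some, so these counts show their spread alone. With all libraries the shares higher and lower were 25.9% and 24.4% for C2C12 day 1 against day 0. For LHCN-M2 day 1 against day 0 they were 23.4% and 23.5%. For the lines' differences they were 26% and 34% on the first day, 31.2% and 40% to the last day and 27% and 29.9% in the later phase. Depth limits the paralogs below 1 CPM most, where few reads were counted.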
